A study of Mus musculus with 8 samples.

Results

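The astrocyte genes described here are Gfap, Aqp4, Aldh1l1, Slc1a2, Slc1a3, Gja1, Gjb6, S100b, Glul and Sox9, genes commonly used to mark astrocytes. They were chosen by name, and every probe annotated to 1 of them on the array was taken: 10 genes with 15 probes on 33 spots, of 20151 named genes, 55681 probes and 59305 spots in all. The samples were hippocampal RNA from male C57BL/6J mice, 11 weeks old when they arrived. The groups were ME (mild treadmill running, placebo diet), AX (no running, astaxanthin diet), AX+ME (running and astaxanthin diet) and SED (no running, placebo diet). Astaxanthin is a red carotenoid antioxidant. All mice ate powdered food with a supplement at 0.5% by weight, and in AX and AX+ME this supplement held 2% astaxanthin. The series title names leptin made in the hippocampus as a mediator of gains in neurogenesis and memory when both treatments are given.

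The labels give 8 mice per group, but each group has 2 arrays. The sources used here do not say how many mice each array stands for. Cy3 was the dye of replicate 1 and Cy5 that of replicate 2, with no second sample on the same array. Nothing says that the replicates of a group came from separate animals, so p-values measure only the spread between samples, which may be technical. In whole tissue, fewer astrocytes and less RNA per astrocyte cannot be told apart. All 8 arrays lie on 1 slide, on which the slide row is the dye and the slide column is the group, so slide position and group cannot be told apart.

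Astrocytes are the glial cells that wrap synapses and blood vessels. They take up glutamate released by neurons and convert it to glutamine, buffer potassium, share ions and metabolites through gap junctions, and carry water channels on the endfeet that touch vessels. When tissue is injured or inflamed they become reactive and make more of the filament protein GFAP. In the dentate gyrus of the hippocampus, the stem cells of adult neurogenesis resemble astrocytes and also use Gfap, Slc1a3 and Sox9.

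Signals are given as multiples of the array's 75th percentile over all spots that are not controls. Before scaling that percentile lay between 1420 and 2319 intensity units, and 63.2% to 76.2% of spots were well above background. Both SED arrays had patches of dim spots at array columns (Col) below 70. Of 257 probes printed 10 times or more, the spots below Col 70 that fell under 0.8 of their own array's median from Col 70 on made up at most 0.63% on the 6 ME, AX and AX+ME arrays, against 16.2% in SED replicate 1 and 31.1% in SED replicate 2. From Col 70 on that share was at most 0.274% on every array. The values of the members are therefore given with the Col of their spots, and their comparisons with SED were repeated with the spots from Col 70 on alone. Of the 10 genes, 7 have a spot from Col 70 on, while Slc1a3, S100b and Glul have none.

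All 15 probes were well above background on all 8 arrays, so every gene on the list was detected in every sample. In the channel of each array that held no RNA, 0 of the 33 spots was well above background. Levels of different probes were not compared with each other, because probes bind with different strength. A shift from SED in both dyes was common on these arrays. In ME, AX and AX+ME 41.8%, 37.4% and 37% of all probes were lower than SED in both dyes, and 23.5%, 27.3% and 30.4% were higher. The share of all probes whose SED samples lie outside all treated samples was not counted, so such separation of a member below has no background beside it.

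**Figure D1:**
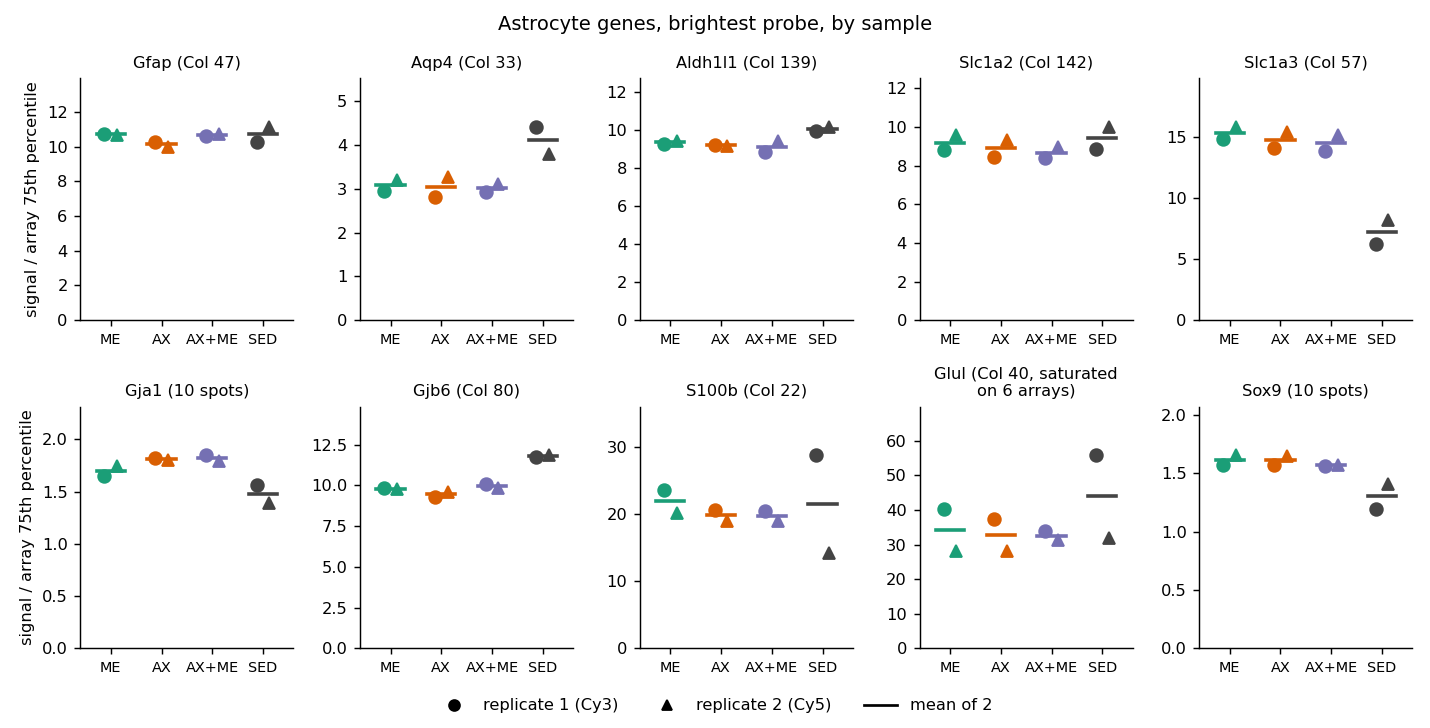
Signal of the brightest probe of each astrocyte gene in every sample, in multiples of the array's 75th percentile (vertical axes start at 0), for ME, AX, AX+ME and SED. Circles are replicate 1, triangles are replicate 2 and lines are means of 2. Slc1a3 shows the widest gap, with 13.9 to 15.9 in the 6 treated samples and 6.22 and 8.25 in SED, at Col 57, while Gjb6 at Col 80 is 9.29 to 10.1 in the treated samples and 11.8 and 11.9 in SED.

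Gfap encodes the main intermediate filament protein of astrocytes and is the usual sign of their reactivity. Its brightest probe, at Col 47, did not separate the groups. It measured 10.7 and 10.7 in ME, 10.3 and 10.0035 in AX and 10.6 and 10.8 in AX+ME, against 10.3 and 11.2 in SED. SED was the highest of the Cy5 samples, and among the Cy3 samples SED and AX were level at the bottom. The difference from SED was 0.00 in ME, -0.08 in AX and -0.00 in AX+ME on the log2 scale, each with a standard error (SE) of 0.064.

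In the processed signal the other Gfap probes pointed in different directions. The probe at Col 92, annotated to the transcript NM_010277 rather than NM_001131020, measured 4.77 and 5.16 in ME, 4.87 and 5.18 in AX and 4.91 and 5.71 in AX+ME, against 3.54 and 4.66 in SED. Both SED samples lay below all treated samples. The log2 differences of 0.29, 0.31 and 0.38 (SE 0.096) did not pass, with limma's adjusted p at 0.185, 0.158 and 0.0897. In the signal before the scanner software's smoothing across the array (multiplicative detrending), the 6 treated samples of this probe stood between 4.90 and 5.71, against 3.95 and 5.86 in SED, and the differences shrank to 0.07, 0.09 and 0.16. The dimmest Gfap probe, at Col 46, ran the other way, with means of 0.437 ± 0.053 in ME, 0.396 ± 0.067 in AX and 0.429 ± 0.030 in AX+ME, against 0.487 ± 0.026 in SED (SD, n = 2 each). Its adjusted p-values by limma lay between 0.119 and 0.316. Before detrending this spot measured 0.433 and 0.330 in SED. The treated samples then measured 0.498 and 0.417 in ME, 0.444 and 0.356 in AX and 0.451 and 0.422 in AX+ME. SED was thus lowest within each dye before detrending and highest after it.

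Slc1a3 encodes GLAST, a glutamate transporter of astrocytes and of radial glia. It was the only member called against SED, and it was called in all 3 comparisons. Its single probe, at Col 57, measured 14.8 and 15.9 in ME, 14.1 and 15.4 in AX and 13.9 and 15.2 in AX+ME, against 6.22 and 8.25 in SED. The SED samples stood apart from the other 6, which differed among themselves by at most 1.07-fold within a dye. On the log2 scale ME differed by 1.10, AX by 1.04 and AX+ME by 1.02 (SE 0.098), with limma's adjusted p at 0.0222, 0.0243 and 0.0227. Fits without 1 sample leave a group with 1 array, so no call is given for them. The call depended on which sample was left out, as did the calls over all probes. The ME difference was 0.95 without SED replicate 1 and 1.04 without ME replicate 1.

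The Slc1a3 spot lies inside the dim area of the SED arrays. Of the 44 spots within 4 rows and columns of it, 43.2% on SED replicate 1 and 47.7% on SED replicate 2 were at least 0.5 log2 lower than on the other arrays of the dye. The neighbours' median was -0.45 and -0.49, beside -1.20 and -0.91 for the Slc1a3 spot itself. Their lower decile was -1.32 and -1.35, below the Slc1a3 spot on both SED arrays. No other spot of Slc1a3 exists on the array, so the difference could not be measured outside that area, and the part of the dim area in it was not tested.

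Slc1a2 encodes GLT-1, the transporter that clears most synaptic glutamate in the hippocampus. Its brightest probe, at Col 142, measured 8.79 and 9.60 in ME, 8.46 and 9.34 in AX and 8.38 and 8.94 in AX+ME, against 8.83 and 10.01 in SED. Within each dye SED was highest and AX+ME lowest, but the differences from SED were small: -0.03, -0.08 and -0.12 log2 (SE 0.055). None passed limma's test, with adjusted p at 0.756, 0.418 and 0.226.

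The Slc1a2 probe at Col 116, annotated to the transcript NM_001077514, was also slightly lower in the treated groups. It measured 1.495 and 1.495 in ME, 1.56 and 1.55 in AX and 1.52 and 1.46 in AX+ME, against 1.73 and 1.63 in SED. The groups did not overlap with SED, and the log2 differences were -0.17, -0.11 and -0.18 (SE 0.057, adjusted p by limma 0.186, 0.2995 and 0.131). Before detrending the AX+ME difference of this probe was -0.43 with an adjusted p by limma of 0.0439. Detrending multiplied this spot by 0.892 and 0.792 in SED, against 0.989 and 0.968 in AX+ME. Over all probes, 4172 were called in AX+ME against SED before detrending, beside 1627 in the main fit. The remaining probe at Col 50 ranged from 0.786 to 1.68 over the 8 samples and its groups overlapped.

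Glul encodes glutamine synthetase, which turns the glutamate taken up by astrocytes into glutamine. Its only probe, at Col 40, was saturated on both arrays of ME, AX and AX+ME and on neither SED array. The median pixel stood at the ceiling of 65497 on those 6 arrays, against 65338.5 and 38427 in SED, so SED replicate 1 was close to the ceiling too. The scaled values were 40.4 and 28.1 in ME, 37.3 and 28.1 in AX and 34.0 and 31.2 in AX+ME, against 55.9 and 31.9 in SED. Before detrending they were 39.4 and 28.1 in ME, 36.5 and 28.1 in AX and 33.2 and 31.4 in AX+ME, against 45.1 and 19.3 in SED. SED replicate 2 was thus above the treated Cy5 values only after detrending, which multiplied it by 1.71. With the treated groups saturated these are only lower bounds for them, and no fold is given.

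Aqp4 encodes aquaporin-4, the water channel of astrocyte endfeet. Its brighter probe, at Col 33, measured 2.96 and 3.21 in ME, 2.80 and 3.27 in AX and 2.92 and 3.12 in AX+ME, against 4.42 and 3.80 in SED. Both SED samples were highest, and the log2 differences of -0.41, -0.44 and -0.44 (SE 0.120) did not pass limma's test, with adjusted p at 0.152, 0.129 and 0.101. The order did not hold before detrending, where the same spot measured 2.86 and 3.18 in ME, 2.75 and 3.26 in AX and 2.85 and 3.13 in AX+ME, against 3.37 and 2.11 in SED, and the differences became 0.18, 0.17 and 0.17. At this spot detrending multiplied the signal by 0.999 to 1.04 on the 6 treated arrays, against 1.32 and 1.87 on the SED arrays. The other Aqp4 probe, at Col 145, measured 2.66 and 2.70 in ME, 2.66 and 3.04 in AX and 2.42 and 2.76 in AX+ME, against 2.81 and 3.03 in SED. Its differences were -0.12, -0.04 and -0.17 (SE 0.068), with adjusted p by limma from 0.179 to 0.771.

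Gjb6 and Gja1 encode connexin 30 and connexin 43, which form the gap junctions that join astrocytes into a network. Gjb6, at Col 80, measured 9.81 and 9.76 in ME, 9.29 and 9.61 in AX and 10.1 and 9.82 in AX+ME, against 11.8 and 11.9 in SED. Every treated sample lay below both SED samples, and the replicates of a group agreed closely. The log2 differences were -0.27, -0.32 and -0.25 (SE 0.055), with limma's adjusted p at 0.0907, 0.0661 and 0.0751, so none passed. The 52 spots around Gjb6 were themselves higher on the SED arrays, by a median of 0.14 and 0.21 log2, beside 0.27 and 0.29 for the Gjb6 spot. Gjb6 was thus the member outside the dim columns whose samples separated most clearly for their spread, at differences below the call threshold.

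Gja1 is printed on 10 spots, 5 of them below Col 70. Averaged over all spots it measured 1.65 and 1.74 in ME, 1.82 and 1.80 in AX and 1.85 and 1.79 in AX+ME, against 1.56 and 1.39 in SED. The log2 differences were 0.20, 0.30 and 0.30 (SE 0.077), with limma's adjusted p at 0.226, 0.118 and 0.0923. Over the 5 spots from Col 70 on the means were 1.65 and 1.74 in ME, 1.87 and 1.80 in AX and 1.84 and 1.74 in AX+ME, against 1.63 and 1.59 in SED. There the differences fell to 0.07, 0.19 and 0.15 (SE 0.057, adjusted p by limma 0.516, 0.168 and 0.161). Before detrending, these 5 spots measured 1.74 to 1.88 in the treated Cy5 samples, against 1.96 to 2.13 in SED replicate 2, so the direction in Cy5 depended on the detrending. Over all 10 spots the differences before detrending were 0.08, 0.16 and 0.17.

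Sox9 encodes a transcription factor of astrocytes and neural stem cells. It has 10 spots, and 8 lie below Col 70. Averaged over all spots it measured 1.57 and 1.65 in ME, 1.57 and 1.65 in AX and 1.56 and 1.57 in AX+ME, against 1.19 and 1.41 in SED, with log2 differences of 0.31, 0.31 and 0.28 (SE 0.076; adjusted p by limma 0.119, 0.109 and 0.105). On the 2 spots from Col 70 on, the order turned round. They measured 1.56 and 1.64 in ME, 1.56 and 1.65 in AX and 1.56 and 1.57 in AX+ME, against 1.64 and 1.78 in SED, and the differences became -0.09, -0.09 and -0.12 (SE 0.049).

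**Figure D2:**
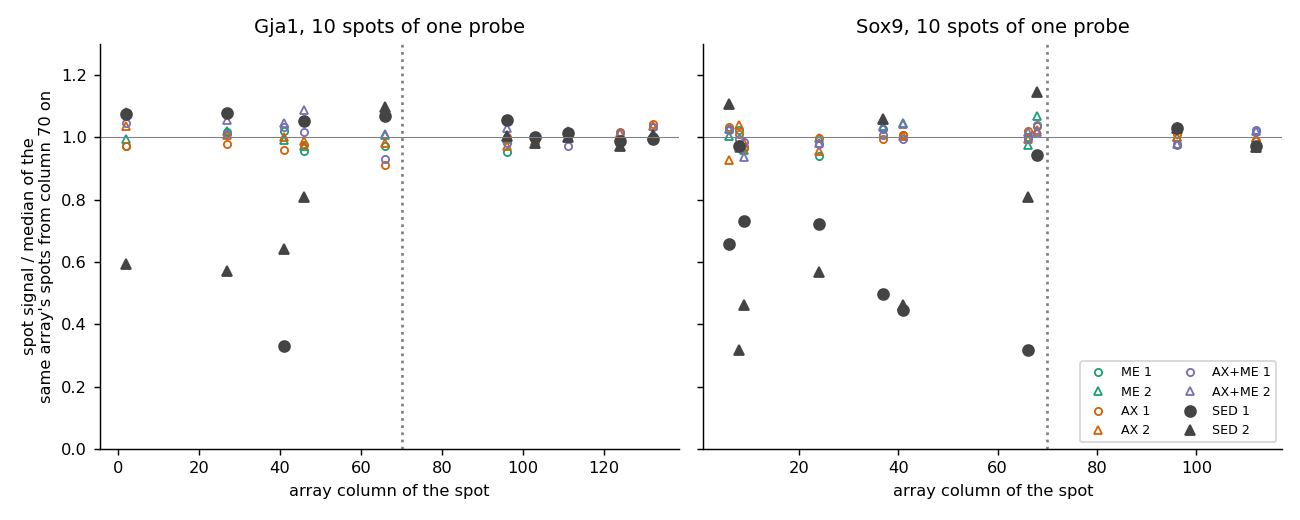
Signal of each of the 10 spots of the Gja1 probe and the 10 spots of the Sox9 probe, divided by the median of the same array's spots from Col 70 on, against the spot's array column. Filled symbols are the SED arrays and open symbols the ME, AX and AX+ME arrays, circles replicate 1 and triangles replicate 2, and the dotted line is Col 70. Only SED spots below Col 70 fall under 0.8, down to 0.316 for Sox9, and from Col 70 on all arrays lie close to 1.

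The repeated spots show the dim area within single probes. Of the 8 Sox9 spots below Col 70, 0 were under 0.8 of their array's own median on each of the 6 ME, AX and AX+ME arrays, against 6 on SED replicate 1 and 4 on SED replicate 2. Of the 5 Gja1 spots there, 0 were under it on each of those 6 arrays, against 1 on SED replicate 1 and 3 on SED replicate 2. The dimmest Sox9 spots on the SED arrays stood at 0.316 and 0.318 of that median, while the brightest Sox9 spots below Col 70 on the same arrays stood at 0.972 and 1.15. A single spot below Col 70 on a SED array could thus be dim or not.

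Aldh1l1 encodes a folate enzyme that marks nearly all astrocytes. At Col 139 it measured 9.29 and 9.44 in ME, 9.21 and 9.19 in AX and 8.84 and 9.42 in AX+ME, against 9.94 and 10.2 in SED. Both SED samples were above the other 6, by a small margin: the log2 differences were -0.10, -0.13 and -0.14 (SE 0.056), with limma's adjusted p at 0.350, 0.249 and 0.184.

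S100b encodes a calcium-binding protein that astrocytes release. At Col 22 it measured 23.6 and 20.2 in ME, 20.7 and 19.0 in AX and 20.5 and 18.9 in AX+ME, against 28.8 and 14.3 in SED. The SED samples were the highest and the lowest of all 8, so the group means of 21.9 ± 2.4, 19.9 ± 1.2 and 19.7 ± 1.1 in ME, AX and AX+ME could not be told from 21.6 ± 10.3 in SED (SD, n = 2 each). Without SED replicate 1 the differences were 0.54, 0.40 and 0.39 log2 in ME, AX and AX+ME. Without SED replicate 2 they were -0.32, -0.46 and -0.47. Each of these fits rests on 1 SED array, so no call is given. Of the 36 spots around S100b, 25.0% on SED replicate 2 were at least 0.5 log2 lower than on the dye's other arrays. On SED replicate 1 it was 0%. Before detrending S100b measured 20.7 and 18.6 in ME, 19.4 and 18.1 in AX and 19.1 and 17.9 in AX+ME. The SED values were then 23.3 and 7.89, and detrending multiplied that of replicate 2 by 1.87. The part of the dim area in the S100b values was not tested.

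Mild exercise alone was compared with SED over 37441 probes. Of the 14 member probes that were not saturated, 1 was called, that of Slc1a3, while 2.11% of all probes were called, and 4.46% of probes with every spot below Col 70. Unadjusted p-values under 0.05 were held by 6 of the 14 and by 22.4% of all probes. The other 13 differed from SED by between -0.41 and 0.31 log2, with adjusted p by limma from 0.0907 up. The members with the next smallest p were Gjb6 (-0.27) and Sox9 (0.31). Over these 14 probes, 7 were lower and 4 higher than SED in both dyes, beside 41.8% lower and 23.5% higher of all probes.

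Astaxanthin alone gave the same count. Of 14 member probes 1 was called, that of Slc1a3, beside 2.26% of all probes and 4.79% of those with every spot below Col 70. Unadjusted p-values under 0.05 were held by 7 of the 14 and by 24.2% of all probes. The other 13 lay between -0.45 and 0.31 log2, and Gjb6 (-0.32) and Sox9 (0.31) had the next smallest p among the members. In both dyes 7 probes were lower and 4 higher, beside 37.4% and 27.3% of all probes.

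The combined treatment against SED again called 1 of 14, that of Slc1a3, beside 4.35% of all probes and 7.76% of those with every spot below Col 70. Unadjusted p-values under 0.05 were held by 7 of the 14 and by 29.6% of all probes. The other 13 ranged from -0.44 to 0.38 log2, with adjusted p by limma from 0.0751 up. By brightest probe, Gjb6 (-0.25) and Gja1 (0.30) had the next smallest p. In both dyes 8 probes were lower and 4 higher, beside 37% and 30.4% of all probes. These 3 comparisons share the SED arrays, so their likeness to each other is not independent.

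**Figure D3:**
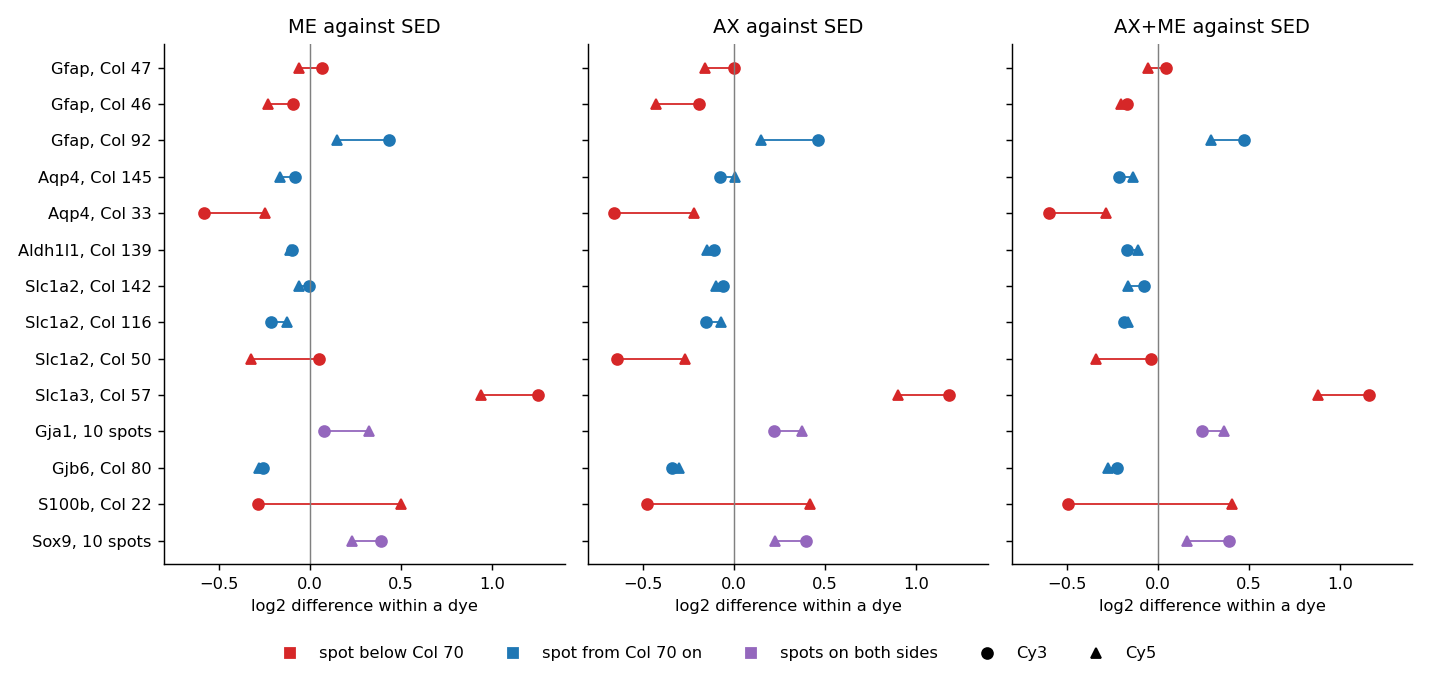
Log2 difference of ME, AX and AX+ME from SED within each dye (circles Cy3, triangles Cy5) for the 14 member probes that were not saturated, one per row. Red probes have their spot below Col 70, blue probes from Col 70 on, and purple probes have spots on both sides. Slc1a3 at Col 57 lies at 0.88 to 1.26 in all 3 panels, and S100b at Col 22 has opposite signs in the dyes.

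With spots from Col 70 on alone, 21928 probes were tested and 8 member probes of 7 genes remained. None was called against SED by limma, beside 0% of all probes in ME, 0% in AX and 0.00912% in AX+ME. At an unadjusted p under 0.05, 19.9%, 22.9% and 30.2% of all probes passed, and 3, 4 and 6 of the 8 member probes. Their log2 differences lay between -0.27 and 0.29 in ME, between -0.32 and 0.31 in AX and between -0.25 and 0.38 in AX+ME, with Gjb6 lowest and the NM_010277 probe of Gfap highest each time.

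In the comparisons of the combined treatment with each single treatment the differences do not involve the SED arrays, but the standard errors and p-values do, since the fit shares 1 spread per probe over all 8 samples. For AX+ME against ME none of the 14 member probes was called, and 0% of all probes were called. Unadjusted p-values under 0.05 were held by 0 of the 14 member probes and by 8.32% of all probes. The differences ran from -0.15 to 0.10 log2 (SE 0.055 to 0.255), with 7 probes lower and 3 higher in both dyes, beside 26.2% and 35.8% of all probes. The members with the smallest p were Slc1a2 (-0.09, SE 0.055, adjusted p by limma 0.727), Gja1 (0.10, SE 0.077, adjusted p 0.778) and Slc1a3 (-0.08, SE 0.098, adjusted p 0.902).

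For AX+ME against AX likewise none of the 14 member probes and 0% of all probes were called, and unadjusted p-values under 0.05 were held by 0 member probes and 5.91% of all probes. The differences ran from -0.14 for the Aqp4 probe at Col 145 to 0.27 for the Slc1a2 probe at Col 50, with 6 probes lower and 4 higher in both dyes, beside 26.1% and 31.5% of all probes. By brightest probe, the smallest p-values belonged to Gjb6 (0.07, SE 0.055, adjusted p by limma 0.961), Gfap (0.08, SE 0.064, adjusted p 0.987) and Slc1a2 (-0.04, SE 0.055, adjusted p 1.0). Slc1a3 differed by -0.02 (SE 0.098). With spots from Col 70 on, 0 of the 8 member probes had an unadjusted p under 0.05 in either comparison, beside 13.2% of all probes against ME and 9.58% against AX.

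Within a dye, the highest of ME, AX and AX+ME exceeded the lowest by a median of 1.05-fold over the 9 members whose brightest probe was not saturated, and by at most 1.15-fold, for S100b. Over all 14 unsaturated probes the largest such ratio was 1.62-fold, for Slc1a2 at Col 50. A missed threshold with 2 samples a group does not show that the groups are alike. The standard errors above give what could have been seen.

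**Figure D4:**
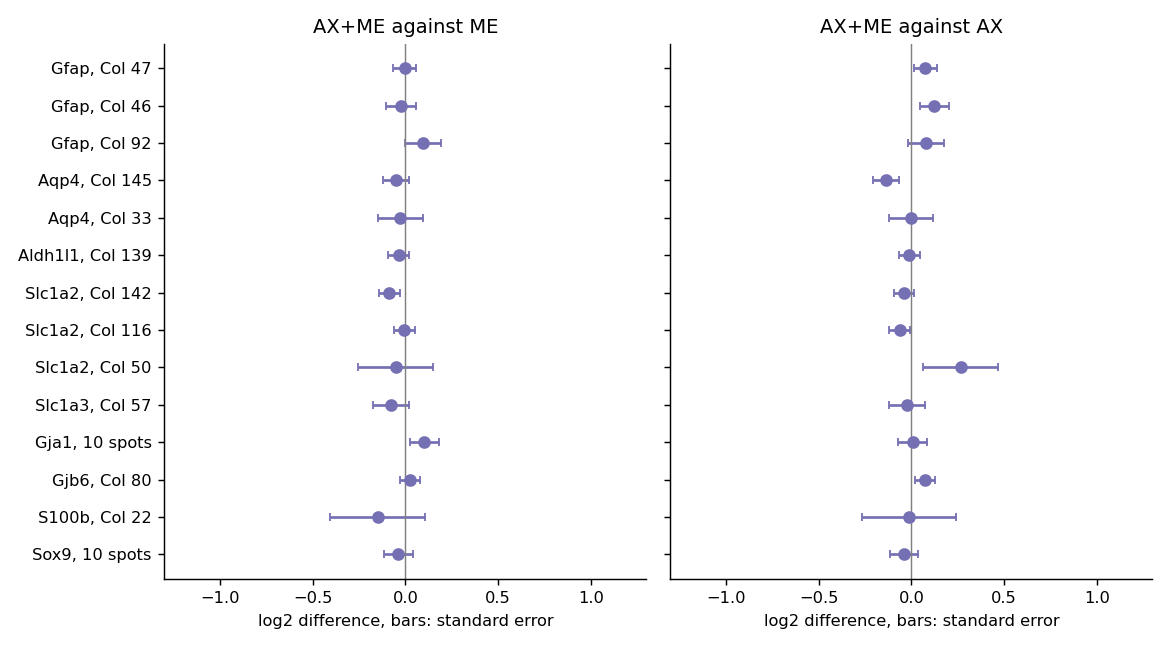
Log2 difference of AX+ME from ME and of AX+ME from AX for the 14 member probes that were not saturated, with standard errors from the fit over all 8 samples. Every point lies between -0.15 and 0.27, and the widest bars belong to S100b at Col 22 and to Slc1a2 at Col 50.

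The interaction asks whether the combination differed from the sum of the single treatments. None of the 14 member probes was called, beside 0.168% of all probes (0.00801% higher and 0.16% lower). In both dyes 5 member probes were lower and 6 higher, beside 21.1% and 38.7% of all probes. Slc1a3 had the smallest p, at -1.12 log2 (SE 0.138, adjusted p by limma 0.0865), which combines a rise of 1.10 in ME, of 1.04 in AX and of 1.02 in AX+ME over the same SED arrays. The next smallest p-values belonged to Gjb6 at 0.34 (SE 0.077, adjusted p 0.222) and Sox9 at -0.35 (SE 0.108, adjusted p 0.303). Aqp4 at Col 33 had a larger value than these, 0.41, with a wider error (SE 0.169, adjusted p 0.398). On the spots from Col 70 on, the Sox9 value was 0.05.

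Detrending moved the SED values more than those of any other group. For member spots below Col 70 the factor had a median of 0.981 to 1.02 on the 6 treated arrays, against 1.16 on SED replicate 1 and 1.42 on SED replicate 2, where it reached 1.95. From Col 70 on its median was 0.975 to 0.989 on the treated arrays, against 0.909 and 0.825 on the SED arrays. Differences from SED measured before detrending were therefore more negative from Col 70 on, as for Aldh1l1 (-0.28, -0.32 and -0.33 in ME, AX and AX+ME) and Gjb6 (-0.31, -0.47 and -0.38). Of these, only that of Gjb6 in AX passed limma's test, with an adjusted p of 0.0499. Over all probes, 2242 were called in AX against SED before detrending, beside 845 in the main fit. Slc1a3 was called before detrending as well, at 1.27, 1.13 and 1.13.

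**Figure D5:**
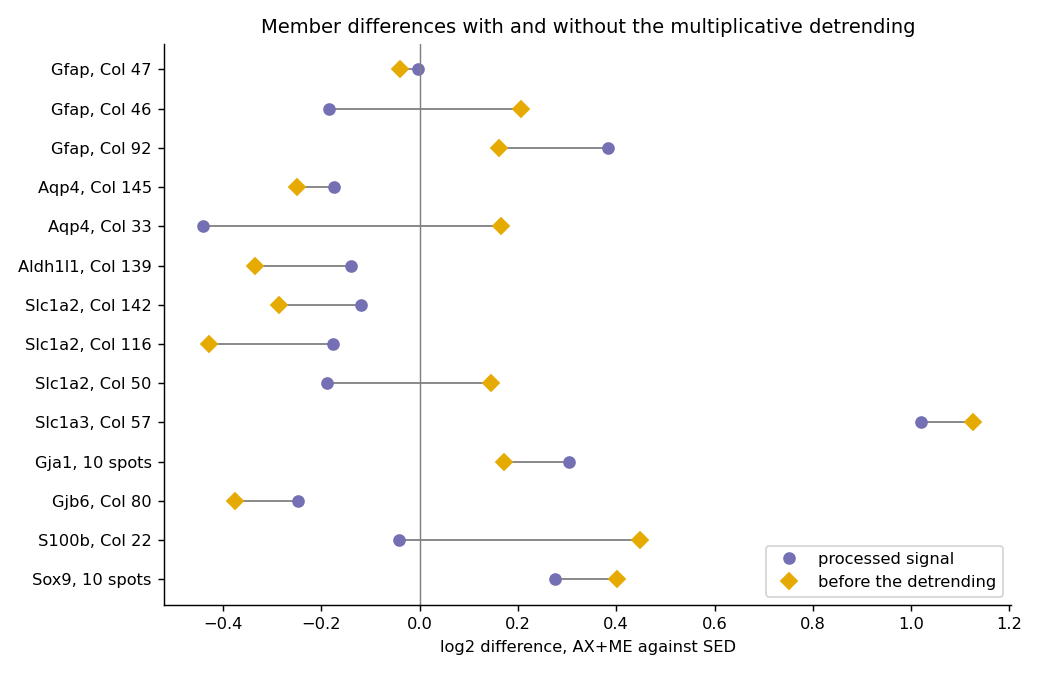
Log2 difference of AX+ME from SED for the 14 member probes that were not saturated, from the processed signal (circles) and from the signal before multiplicative detrending (diamonds). Aqp4 at Col 33 lies at -0.44 and 0.17, Gjb6 at -0.25 and -0.38, and Slc1a3 at 1.02 and 1.13.

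Other genes of astrocytes were read from lists of genes by role, 1 probe a gene. Of 10 genes for glutamate, potassium and ion handling, 1 was called higher in ME and in AX+ME and 0 in AX. It was Glud1, glutamate dehydrogenase, at 0.75 log2 in ME (adjusted p by limma 0.0433) and 0.68 in AX+ME (adjusted p 0.0420), and its spot lies below Col 70. Of all probes with every spot below Col 70, 4.46% were called in ME, 4.79% in AX and 7.76% in AX+ME. The list's median difference was -0.06, -0.10 and -0.08 in ME, AX and AX+ME, beside -0.05, -0.03 and -0.02 over all probes tested. Of 10 genes of the endfoot and its membrane complex 0 were called in any comparison with SED. The smallest p in ME belonged to Utrn, utrophin, at -0.26 (adjusted p 0.118, and 0.138 in the fit of spots from Col 70 on, where its spot lies).

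Of 10 genes of astrocyte energy and lipid metabolism 0 were called against SED. The smallest p in AX+ME was that of Slc16a1, the lactate transporter MCT1, at 0.29 (adjusted p by limma 0.0593, from Col 70 on). Of 10 secreted factors and receptors, Thbs1, thrombospondin 1, was called at 0.65 in AX and 0.56 in AX+ME (adjusted p by limma 0.0394 and 0.0433), with its spot below Col 70. Of 10 development factors, Zbtb20 was called in ME (-0.52), Hes5, a Notch target, in AX (-0.62), and both in AX+ME (-0.42 and -0.48), each lower and with its spot below Col 70. The share called among all probes with every spot below Col 70 was 4.46%, 4.79% and 7.76% in ME, AX and AX+ME.

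Of 20 genes of reactive astrocytes 17 were tested, and Steap4, Ggta1 and Ptx3 did not pass the filter on dim probes. Lcn2, lipocalin 2, was called higher in AX at 0.66 log2 (SE 0.057, adjusted p by limma 0.0215) from a spot outside the dim columns, and stood at -0.54 in AX+ME against AX (adjusted p 0.516). Emp1, a membrane protein, was called lower in AX+ME at -0.39 (adjusted p 0.0472). Of all probes, 1.68% were called higher in AX and 1.59% lower in AX+ME. The list's median was -0.12, -0.04 and -0.05 in ME, AX and AX+ME, and none of its 11 genes measured from Col 70 on was called in the fit of those spots. Lcn2 and Emp1 had the same differences in that fit, with adjusted p-values by limma of 0.104 and 0.0627. That fit called 0% of all probes in AX and 0.00912% in AX+ME.

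Markers of the other cell types in the tissue were read the same way. The summed level of the 10 astrocyte genes was 124 and 110 in ME, 116 and 107 in AX and 113 and 111 in AX+ME, against 139 and 104 in SED. Without the saturated Glul it was 83.3 and 82.2 in ME, 78.3 and 79.3 in AX and 78.6 and 79.6 in AX+ME, against 83.0 and 72.3 in SED. The summed neuron markers stood at 222 and 179 in ME, 208 and 176 in AX and 203 and 192 in AX+ME, against 244 and 199 in SED. Oligodendrocyte markers summed to 114 and 105, 113 and 105, and 110 and 109 in ME, AX and AX+ME, against 118 and 109 in SED. Microglia markers summed to 86.8 and 76.9, 83.8 and 75.7, and 80.1 and 77.7, against 95.7 and 81.3. The sums of these 3 other cell types were highest in SED among the Cy3 samples. The same held for endothelial and mural (24.4), choroid plexus and ependyma (63.2) and meningeal (68.8) markers and for all 10 astrocyte genes. It did not hold for the astrocyte sum without Glul. Among the Cy5 samples SED was highest only for neuron, microglia, and endothelial and mural markers. AX+ME was highest there for oligodendrocyte (109.3, SED 108.7) and meningeal markers (55.3, SED 51.5). AX was highest for choroid plexus and ependyma markers (48.6, SED 48.1). The astrocyte sum, with or without Glul, was lowest in SED among the Cy5 samples. Bright probes weigh most in such sums, and only the astrocyte sum was also taken without a saturated probe.

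Called against SED were 0 of 10 oligodendrocyte markers in any comparison. Of 10 neuron markers 1 was called in each, Gad1, the GABA-synthesising enzyme, at 0.56, 0.51 and 0.57 log2 in ME, AX and AX+ME from a spot below Col 70. Of 10 endothelial and mural markers, Pdgfrb, a pericyte receptor with its spot below Col 70, was called at 0.93, 1.11 and 1.04, and Flt1, a receptor for vascular growth factors whose spot also lies below Col 70, at -0.54 in AX+ME. Among all probes with every spot below Col 70, 4.46%, 4.79% and 7.76% were called in ME, AX and AX+ME. All 10 markers of each of these lists were well above background on all 8 arrays, and the part of other cell types in the members' values was not tested.

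Of 10 choroid plexus and ependyma markers, 4 were called lower in ME, 0 in AX and 4 in AX+ME, with list medians of -0.29, -0.03 and -0.28. Of all probes, 0.542% were called lower in ME, 0.574% in AX and 1.59% in AX+ME. In the fit of spots from Col 70 on, 0 of the 9 markers tested were called in any of the 3. That fit called 0% of all probes in ME, 0% in AX and 0.00912% in AX+ME. Probes with their only spot there keep the same difference, while the SE, the unadjusted p and the adjusted p change. Kcne2, a potassium channel subunit of the choroid plexus, stood at -0.52 in ME and -0.69 in AX+ME, with adjusted p by limma of 0.110 and 0.0627 in that fit. Summed, they measured 54.5 and 44.8 in ME, 57.0 and 48.6 in AX and 49.2 and 47.1 in AX+ME, against 63.2 and 48.1 in SED. Of 10 meningeal markers, Col3a1 and Col1a2 were called lower in ME, at -0.84 and -0.47, and Col3a1 in AX at -0.57. Their spots lie from Col 70 on, so the differences were the same in the fit of those spots. There the adjusted p by limma was 0.107 and 0.110 in ME and 0.104 in AX, and none was called.

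The mean of the 10 members, centred within each dye, includes the saturated Glul, and members on opposite sides of SED cancel in it, so it does not describe single genes. It stood at 0.03 and 0.04 in ME, -0.02 and 0.01 in AX and -0.02 and 0.02 in AX+ME, against 0.02 and -0.07 in SED on the log2 scale. The genes whose pattern over the 8 samples was most like that mean were Hgs (Pearson r 0.945), Med29 (0.937), Nsa2 (0.927), Tm2d3 (0.919) and Mrps33 (0.917). The candidates were 11328 probes of other named genes, with every spot from Col 70 on and well above background on all 8 arrays. These correlations are a description over 8 samples that share a slide, with no test, and they carry the same limits as the mean they follow.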

How the data were processed

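Total RNA was extracted with the RNeasy Mini kit and labelled by Agilent's low-input protocol, per the labels' protocols. The submitters' processing notes name Agilent Feature Extraction 11.0.1.1, and the files deposited are its output, with spot intensities for each array. The processed intensity has, per the file headers, a subtracted background and a multiplicative detrending. The design refers to mouse build mm9, and no coordinates were used. The deposited value list lay within 0.5 of the same intensities, on a linear scale, with medians from 98.0 to 174, neither centred nor scaled, in the direction of the signal.

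Each array's own-channel intensity was scaled to its 75th percentile over 59305 non-control spots. Spots marked non-uniform were left out, and spots of a probe were averaged. Values were floored at 0.005 and put on a log2 scale. Symbols came from accessions through the RefSeq gene table: 26592 of 55681 probes had one. A probe was kept where 1 group or more had it well above background in each replicate (for repeated spots, in most of them), which left 37441. limma 3.58.1 in R 4.3.3 fitted group and dye over all 8 samples (3 residual and 1.53 prior degrees of freedom), with Benjamini-Hochberg adjustment over all kept probes and a threshold of 0.05. The replicate number is the dye, so the dye term is the replicate block. Each group has 2 arrays, which limits the precision. The test was checked on simulated data.

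Named are all 10 members by their brightest kept probe, per comparison those past the threshold and up to 3 with the smallest p, and from each list at most 4 called genes or the 1 with the smallest p. Other probes of a member were given with values where these bear on the gene. The normexp alternative used the median signal, as no mean signal is in the files used here. The members and lists were chosen with earlier results of these data known. One result on the marker lists of other cell types is not reported here.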

Additional observations from a re-analysis of the deposited data

Results flagged for a closer look

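For 3 genes the effect of a treatment had opposite signs in both dyes depending on whether the other treatment was given, and no interaction passed the threshold, so the difference was not shown by the test. The interaction was -1.12 log2 for Slc1a3, 0.34 for Gjb6 and -0.35 for Sox9, with limma's adjusted p at 0.0865, 0.222 and 0.303. Each value holds for ME against SED beside AX+ME against AX, and for AX against SED beside AX+ME against ME. Effects with the other treatment given were small. AX+ME against ME was -0.08 for Slc1a3, 0.02 for Gjb6 and -0.04 for Sox9, and AX+ME against AX was -0.02, 0.07 and -0.04. Their SE was 0.098, 0.055 and 0.076, so the opposite signs do not show that an effect reversed. All 3 interactions rest on the SED arrays, and only Gjb6 has its whole signal from Col 70 on. For Slc1a3 the interaction was -1.28 before detrending (adjusted p by limma 0.0379), and the part of the dim area in it was not tested. For Sox9 the interaction was 0.05 on the spots from Col 70 on.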

How the results depend on the processing

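The direction of Slc1a3 against SED held under all 21 settings that gave a value, from 0.95 to 1.35 log2 in ME, 0.90 to 1.20 in AX and 0.88 to 1.21 in AX+ME, and it was called in 15 of the 21 in each. The 21 include fits without 1 sample, which leave a group with 1 array. In those fits the calls over all probes moved as well, so the count does not describe Slc1a3 alone. Some of the 21 settings could not change the Slc1a3 difference. Those without the filter, with 1 probe a gene and with a trended robust prior left it at 1.10 in ME. None of the settings measured Slc1a3 outside the dim area. The normexp background (on the median signal) turned Aqp4 at Col 33 to 0.24, 0.22 and 0.19 in ME, AX and AX+ME, and the signal before detrending, a setting chosen after seeing the data, to 0.18, 0.17 and 0.17. Spots from Col 70 on turned Sox9 to -0.089, -0.085 and -0.12, and its interaction to 0.051. Without AX replicate 1 the Aqp4 probe at Col 145 stood at 0.0064 in AX, and without AX replicate 2 at -0.079. The causes were not tested beyond these settings.

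Member probes called were 1, 1 and 1 in ME, AX and AX+ME against SED. They became 2, 4 and 5 with normexp, 0, 0 and 0 from Col 70 on, 2, 2 and 4 with a trended robust prior, and 3 in AX and 3 in AX+ME before detrending. Without the filter they were 2 in AX and 2 in AX+ME, and with probes detected on all 8 arrays 2 in AX. The interaction went to 1 with normexp, with the trended prior and before detrending. All probes called (790, 845 and 1627) became 2040, 4065 and 6254 with normexp, 1358, 1686 and 2816 with detection on all 8 arrays, 0, 0 and 2 from Col 70 on, where fewer probes were tested, 2115, 2570 and 3965 with the trended prior, and 1604, 2242 and 4172 before detrending. Without the filter AX+ME against ME called 3 and AX+ME against AX 2. The 63 interaction calls became 563 with normexp, 227 with detection on all 8 arrays, 123 with 1 probe a gene, 0 from Col 70 on, 139 without the dye term (no replicate block), 361 with the trended prior and 404 before detrending. Leaving out 1 sample at a time gave 0 to 5749 calls in ME, 0 to 5780 in AX, 0 to 6269 in AX+ME, 0 to 2 in AX+ME against AX and 0 to 3060 in the interaction, and 0 to 2, 0 to 2, 0 to 3 and 0 to 1 member probes in ME, AX, AX+ME and the interaction. Of the differences of single genes under the alternatives, 723 kept direction and side of the threshold, 28 gained the call, 18 lost it and 11 reversed. Alternatives that change only the filter or the spread leave a difference as it was, so part of the 723 was fixed in advance. Of the group levels, 52 moved by at most 1 SD of 2 arrays and 68 by more. Levels under array median scaling are in another unit, so part of these moves reflects the unit alone. With 2 arrays a group, saturation of Glul and 1 spot for most probes, small differences could not be resolved.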
